A study of Homo sapiens with 12 samples.

Results

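The expression of 48 genes at the end of the long arm of chromosome 2 was analysed in HCT116 cells with and without the *miR-34a/b/c* genes (*WT* and *KO* cells). The genes are listed members of band 2q37 between 231.2 and 242.1 Mb of GRCh38, and they were chosen by their measured ratio between *KO* and *WT* cells, since many of them were higher in *KO* cells under DMSO and under 5-FU. Of the 60580 gene symbols in the deposited data, 16123 had at least 20 counts in at least 1 library, and 47 of the 48 members were among them. The neuronal motor gene *KIF1A* had 0 to 4 counts per library and was not tested. At the other side of this limit, the germ cell gene *RBM44* reached 22 counts at most and *EFHD1* 37. As the ratios between genotypes chose the members, these ratios are given as a description without a test, and tests are given for the response to 5-FU and for genes outside the list.

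HCT116 cells derive from a human colorectal carcinoma and retain functional p53. The drug 5-FU is a fluorinated uracil used in chemotherapy that disturbs nucleotide synthesis. Bulk RNA-Seq was available for 4 states, namely *WT* with DMSO, *miR-34a/b/c-KO* with DMSO, *WT* with 5-FU and *miR-34a/b/c-KO* with 5-FU, each treated for 48 h. In *miR-34a/b/c-KO* cells (referred to as *KO* cells), the regions encoding *miR-34a* and *miR-34b/c* had been deleted with CRISPR-Cas9, and *WT* cells had received the Cas9 plasmid without guide RNAs. Cells of both genotypes had been grown from single sorted cells, and several independent clones of each genotype had been obtained. Whether the libraries of a state came from different clones or from 1 clone is not given in the sources used here. The p-values therefore measure only the spread between these libraries.

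Band 2q37 is the gene-rich terminal band of the long arm of chromosome 2. Its genes do not form a pathway. They encode, among others, subunits of the COP9 signalosome, which removes NEDD8 from cullin ubiquitin ligases, the 4EHP-GIGYF2 complex, which represses translation of selected mRNAs, parts of the autophagosome conjugation machinery and several regulators of transcription. In patients, loss of this band causes a developmental syndrome in which *HDAC4* has been implicated. MicroRNAs of the miR-34 family are induced by p53 and lower the mRNAs they pair with, mainly through sites in 3' UTRs.

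The data of 12 libraries were deposited, and 1 of them, replicate 1 of *WT* cells with 5-FU, was identical to replicate 3 of *WT* cells with DMSO (0 of 60580 genes differed). It was left out, so that *WT* cells with 5-FU were represented by 2 libraries and the other states by 3 each. Total counts were 22831415 to 39064210 per library. The microRNA genes *MIR34A*, *MIR34B* and *MIR34C* had 0 counts in all 11 libraries and therefore did not check the genotype labels. Of 9 colon epithelial markers, 7 had at least 20 counts in every library, with a summed level of 5170 to 12000 CPM, whereas *LGALS4* and *VIL1* were at 0 counts in some libraries. Of the 3 leukocyte, 3 endothelial, 4 fibroblast and 2 hepatocyte markers, *VWF* and *COL1A1* had at least 20 counts in every library, *PDGFRB* had 5 to 26, and the rest of the defining markers had 0 to 9 counts per library. Summed fibroblast markers were 21.0 to 26.3 CPM in *WT* and 45.6 to 49.9 CPM in *KO* cells with DMSO, and 49.8 to 59.7 and 73.6 to 75.2 CPM with 5-FU, and their part in the results was not tested.

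All ratios between *KO* and *WT* cells (KO/WT) given below are fitted ratios of expression with upper-quartile scaling, as fold or on the log2 scale. The median KO/WT ratio of the 47 members was 2.0-fold under DMSO and 1.97-fold under 5-FU. More than 1.5-fold higher levels in *KO* cells were measured for 39 members under DMSO and 41 under 5-FU, and for 38 under both. Over all genes tested, 12.4% were above this fold under DMSO, 9.49% under 5-FU and 4.92% under both, and since these ratios chose the list, nothing is read from the comparison. In 44 members under DMSO and 42 under 5-FU, every *KO* library was above every *WT* library, and 42 members showed this under both treatments. Of all genes tested, 30.1%, 27.9% and 16.1% did so. In bulk RNA, more RNA per cell and more cells of a kind cannot be told apart.

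The ratios changed abruptly within the list. Of the 4 members nearest to the centromere, 3 were lower in *KO* than in *WT* cells under both treatments and *PDE6D* was slightly higher under DMSO and slightly lower under 5-FU, contrary to the name under which the genes were grouped. *NCL*, which encodes the nucleolar protein nucleolin, was at 0.75-fold under DMSO and 0.755-fold under 5-FU, *PTMA* (prothymosin alpha, an acidic chromatin-associated protein) at 0.759-fold and 0.781-fold, *PDE6D* (a carrier of prenylated proteins) at 1.04-fold and 0.989-fold, and *COPS7B* (a subunit of the COP9 signalosome) at 0.87-fold and 0.818-fold. The next member is *DIS3L2*, which encodes an exonuclease for uridylated RNAs, at 1.79-fold under DMSO and 1.61-fold under 5-FU, followed by *EIF4E2* at 2.03-fold and 2.04-fold. *COPS7B* ends at position 231809254, *DIS3L2* spans chr2:231961245-232344350 and *EIF4E2* starts at position 232550659. Thus 152 kb separated *COPS7B* from *DIS3L2*, the first member above 1.5-fold. Some members further on were also below 1.5-fold, namely *EFHD1* under both treatments, *HES6*, *HJURP* and *PASK* under DMSO and *HDAC4* under 5-FU.

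**Figure D1:**
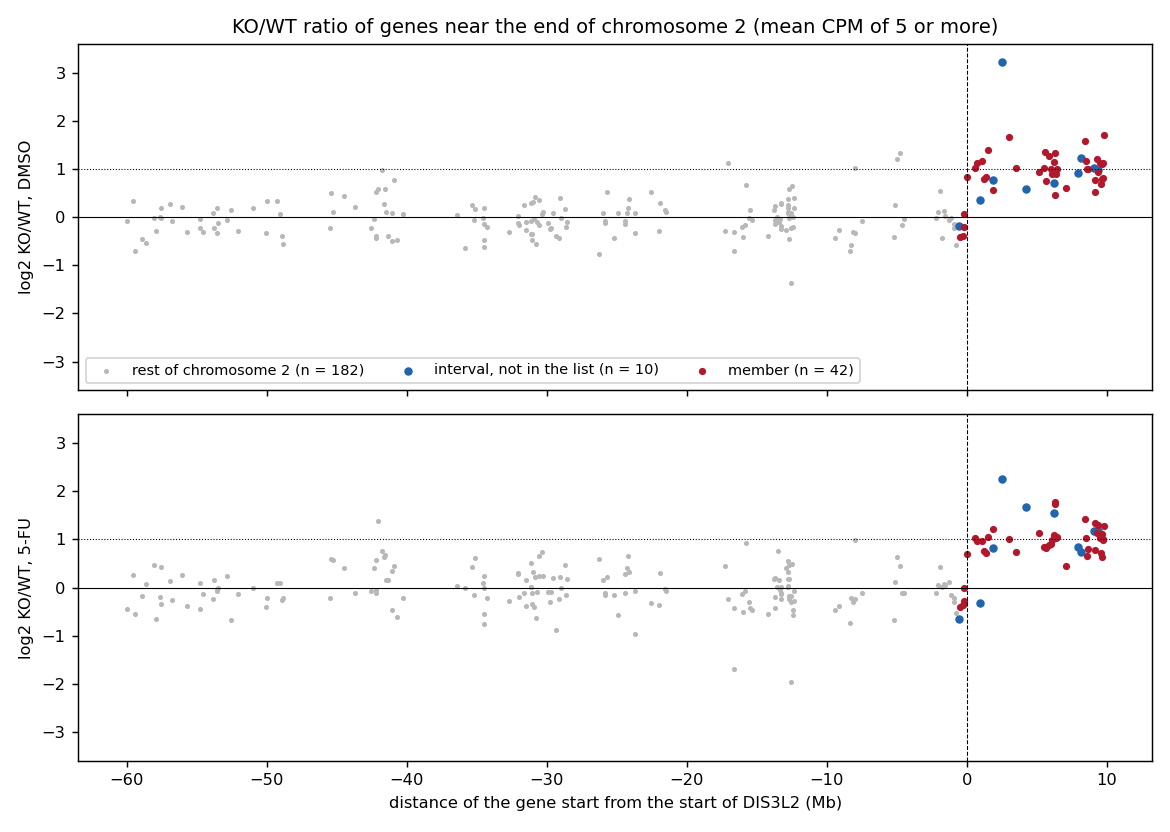
Log2 KO/WT ratio of genes with a mean of at least 5 CPM in the last part of chromosome 2, under DMSO (top) and 5-FU (bottom), against the distance of the gene start from the start of *DIS3L2* in Mb. Red points are the 42 members at this level, blue points the 10 other genes of the interval and gray points 182 genes of the rest of the chromosome. Members right of the dashed line lie around the dotted line at 1 (2-fold), those left of it at or under 0.06.

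From *DIS3L2* to *D2HGDH*, over 9.81 Mb, 43 members were measured. Their median KO/WT ratio was 2.01-fold under both treatments, and 39 and 41 of them were above 1.5-fold. For the 38 of these genes with a mean of at least 5 CPM, 28 lay between 1.5-fold and 2.5-fold under both treatments, and their log2 ratios had a SD of 0.295 under DMSO and 0.276 under 5-FU. As these ratios chose the genes, their spread is given as a description. The middle of these 38 log2 ratios (between the lower and upper quartiles) extended from 0.821 to 1.16 under DMSO and from 0.811 to 1.11 under 5-FU. Across the 38 genes, which are not independent replicates, the log2 ratio under DMSO and that under 5-FU had a Pearson r of 0.198, and r was 0.322 over all 43 (no test). Since both ratios chose the genes, nothing is read from their closeness to 1 on the log2 scale or from the size of r. With a RUVg factor in the fit, the median log2 ratio of all 47 members was 0.869 under DMSO and 0.916 under 5-FU. Then 32 and 39 members were above 1.5-fold instead of 39 and 41. This alternative was added for these ratios after seeing the data. RUVg estimates unwanted variation from control genes, here the 11123 of 16123 tested genes with the weaker evidence of change. The variance of the factor lay to 98.2% between treatments, so it was not separate from the 5-FU response.

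The same level was seen in each library. Relative to the *WT* mean of the same treatment, the median over the 38 genes was 1.99-fold, 2.05-fold and 1.99-fold in the 3 *KO* libraries with DMSO, and 2.03-fold, 2.01-fold and 1.95-fold in those with 5-FU. The *WT* libraries were between 0.979-fold and 1.02-fold. The 4 members before *DIS3L2* had medians of 0.758-fold to 0.87-fold in the 6 *KO* libraries. For 678 genes of the rest of chromosome 2 with at least 5 CPM, the medians of these libraries were 0.967-fold to 0.984-fold. These 678 genes were not chosen by their ratios, whereas the members were, so nothing is read from the comparison.

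**Figure D2:**
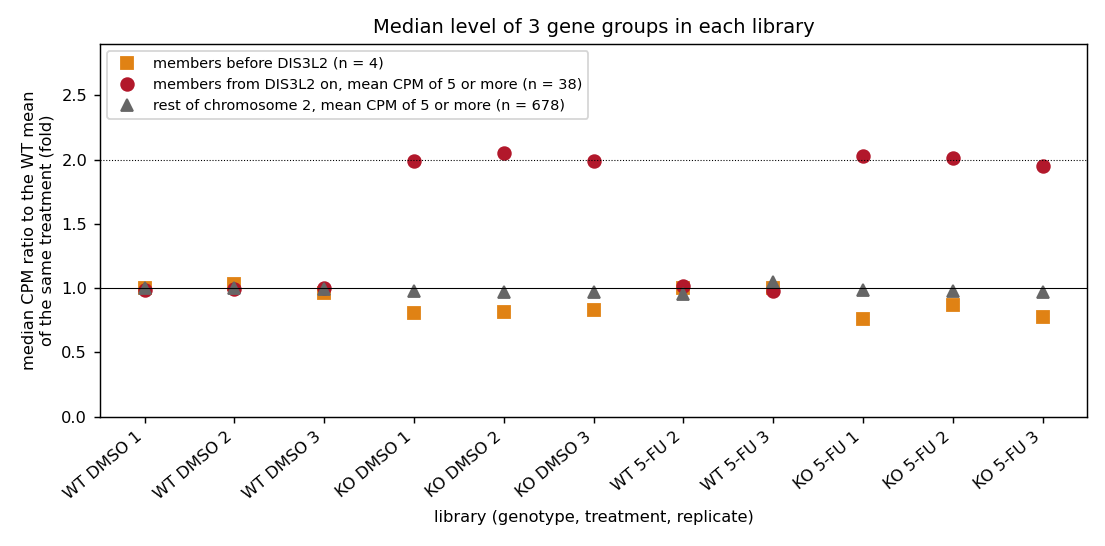
Median CPM ratio to the *WT* mean of the same treatment (vertical axis, fold, from 0) in each of the 11 libraries (horizontal axis), for the 4 members before *DIS3L2* (orange squares), the 38 members from *DIS3L2* on with at least 5 CPM (red circles) and 678 genes of the rest of chromosome 2 (gray triangles). The red circles lie between 1.95 and 2.05 in all *KO* libraries. For the red circles and the orange squares, *KO* and *WT* libraries do not overlap, which is a description, as KO/WT ratios chose the members. The gray triangles of the *KO* libraries (0.967 to 0.984) lie within the range of the *WT* libraries over both treatments (0.954 to 1.05).

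Genes around the members were compared by the same ratios. Among the 10 tested genes nearest to the list on its centromeric side, the median log2 KO/WT ratio was -0.0927 under DMSO and -0.0752 under 5-FU, and 0 of them were above 1.5-fold. The closest, just outside the lower limit of 231.2 Mb, is *ARMC9*, which encodes a ciliary protein, at 0.671-fold under DMSO and 0.688-fold under 5-FU, next to *PSMD1* (a proteasome subunit) at 0.855-fold and 0.86-fold. Just inside this limit but not on the list, *B3GNT7* was at 0.879-fold and 0.64-fold. Of 21 tested genes that start in the interval from *DIS3L2* on and are not on the list, 14 were above 1.5-fold under both treatments, compared to 4.92% of all genes. Their medians were 1.96-fold and 2.26-fold. Of the 21, 12 had a mean under 5 CPM, and some of these reached 20 counts only in the state where they were high. For the 9 with at least 5 CPM, medians were 1.88-fold and 2.24-fold, with 7 above 1.5-fold under both. As the interval is that of the chosen members, nothing is read from this share. Well-measured examples were *SEPTIN2* (a septin filament subunit) at 1.96-fold and 2.24-fold, *NDUFA10* (a subunit of respiratory complex I) at 1.88-fold and 1.79-fold, *MTERF4* (a mitochondrial ribosome assembly factor) at 2.04-fold and 2.26-fold and *COPS9* (a small COP9 signalosome subunit) at 2.34-fold and 1.67-fold. By contrast, *NGEF*, which encodes a guanine nucleotide exchange factor, was at 1.27-fold under DMSO and 0.798-fold under 5-FU. The *UGT1A* genes of this interval were at low levels, with *UGT1A6* at 0 counts in all 6 libraries with DMSO and 10.7-fold higher in *KO* cells under 5-FU, where it reached 170 counts. In steps of 10 Mb from the end of the chromosome, the last step had a median log2 ratio of 1.01 under DMSO and 1.02 under 5-FU. Of its 63 genes, 81.0% were above 1.5-fold under both treatments. The medians of the 20 other steps with at least 20 genes were between -0.117 and 0.112 under DMSO and between -0.184 and 0.162 under 5-FU. The last step includes most of the members, which were chosen by these ratios, so nothing is read from its comparison with the other steps.

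The members acting on RNA and translation include *NCL* and *HDLBP*, which were among the 5 members with the highest CPM, a level that is not corrected for gene length. *HDLBP*, which encodes the RNA-binding protein vigilin, was measured at 366, 358 and 360 CPM in the *WT* libraries with DMSO and at 848, 827 and 831 CPM in the *KO* libraries. With 5-FU, it was at 365 and 342 CPM in *WT* and 754, 760 and 805 CPM in *KO* cells. The ratios were 2.31-fold and 2.19-fold, and the groups were far apart. *NCL* was at 1760, 1800 and 1680 CPM in *WT* and 1310, 1340 and 1280 CPM in *KO* cells with DMSO, and at 1210 and 1320 CPM versus 937, 962 and 972 CPM with 5-FU. Thus every *KO* library was below every *WT* library of the same treatment. *EIF4E2* encodes the cap-binding protein 4EHP, and *GIGYF2* its partner in translational repression. *EIF4E2* was at 2.03-fold under DMSO and 2.04-fold under 5-FU, and *GIGYF2* at 2.19-fold and 1.96-fold. *RBM44* was at 3.16-fold and 2.34-fold, however from only 3 to 22 counts.

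Among regulators of chromatin and transcription, *PER2*, a repressor in the circadian clock, had the highest mean log2 KO/WT ratio of all members (1.53). It was at 13.1, 13.7 and 14.7 CPM in *WT* and 37.2, 31.8 and 35.2 CPM in *KO* cells with DMSO. With 5-FU, it was at 13.4 and 12.4 CPM versus 42.5, 42.3 and 44.4 CPM, so that the ratios were 2.51-fold and 3.33-fold. *PTMA* was measured at 2660, 2870 and 2590 CPM in *WT* and 1980, 2070 and 2110 CPM in *KO* cells with DMSO, and at 1320 and 1190 CPM versus 933, 1050 and 958 CPM with 5-FU. Its groups did not overlap, with *KO* below *WT*. *LRRFIP1*, which encodes a nucleic acid-binding regulator, was at 102, 107 and 105 CPM versus 178, 176 and 174 CPM with DMSO (1.68-fold) and at 91.9 and 108 CPM versus 179, 173 and 175 CPM with 5-FU (1.76-fold). *ING5*, a subunit of histone acetyltransferase complexes, was at 2.18-fold and 1.97-fold, the THAP domain gene *THAP4* at 1.73-fold and 1.54-fold, and the class IIa deacetylase gene *HDAC4* at 1.52-fold and 1.37-fold. *HES6*, a member of the HES family of transcription factors, was at 1.38-fold under DMSO but 3.41-fold under 5-FU, and under DMSO its log2 ratio was -0.37 when a RUVg factor was included in the fit.

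In the group of ubiquitin, NEDD8 and proteolysis genes, 6 of 7 members were above 1.5-fold under both treatments. *COPS8*, a subunit of the COP9 signalosome, was at 1.92-fold and 2.21-fold. *UBE2F*, which encodes an E2 enzyme that transfers NEDD8, was at 2.01-fold and 1.87-fold. The deubiquitinase family gene *USP40* was at 2.64-fold and 2.08-fold, *ASB1*, a substrate receptor of cullin ligases, at 2.0-fold and 2.06-fold, the aminopeptidase-like *RNPEPL1* at 2.01-fold and 1.57-fold, and the calpain gene *CAPN10* at 1.99-fold and 1.75-fold. *COPS7B*, located before *DIS3L2*, was the exception.

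Both autophagy genes of the list were above 1.5-fold. *ATG16L1*, which directs the conjugation of LC3 to membranes, was at 27.0, 26.8 and 23.9 CPM in *WT* and 45.1, 44.3 and 45.2 CPM in *KO* cells with DMSO (1.74-fold), and at 30.3 and 31.5 CPM versus 53.2, 49.7 and 53.8 CPM with 5-FU (1.69-fold). *ATG4B*, the protease that processes LC3, was at 36.0, 35.7 and 37.7 CPM versus 78.9, 78.7 and 79.4 CPM with DMSO and at 47.3 and 38.2 CPM versus 93.7, 93.1 and 90.5 CPM with 5-FU (2.16-fold under both). For both genes, the libraries of the genotypes were separated under each treatment.

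In the group of signaling and receptor genes, all 10 members were above 1.5-fold under 5-FU and 9 under DMSO. *GPC1*, which encodes the heparan sulfate proteoglycan glypican-1, was at 54.0, 53.2 and 59.8 CPM in *WT* and 160, 173 and 166 CPM in *KO* cells with DMSO. With 5-FU, it was at 129 and 105 CPM versus 304, 314 and 319 CPM. The ratios were 2.98-fold and 2.67-fold, among the highest of the list. *INPP5D* (the inositol phosphatase SHIP1) was at 2.24-fold and 1.94-fold, *DGKD* (a diacylglycerol kinase) at 1.79-fold and 1.64-fold, *RAMP1* (a subunit of the CGRP receptor) at 2.42-fold and 1.85-fold and *ILKAP* (a phosphatase associated with integrin-linked kinase) at 2.2-fold and 2.15-fold. The kinase gene *STK25* was at 2.19-fold and 2.03-fold, *PPP1R7* (a regulatory subunit of protein phosphatase 1) at 1.7-fold and 1.71-fold and *PASK* (a PAS domain kinase) at 1.43-fold and 2.52-fold. At low levels, the phosphatase gene *DUSP28* was at 2.53-fold and 2.63-fold, and the G-protein coupled receptor gene *GPR35* at 2.66-fold and 1.85-fold.

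In the group of trafficking, cilium and cytoskeleton genes, *SH3BP4*, which encodes an endocytic adaptor, had the highest ratio under DMSO at 3.19-fold, compared to 2.02-fold under 5-FU. *RAB17*, an epithelial Rab GTPase, was at 2.57-fold and 1.8-fold, *MLPH*, the Rab effector melanophilin, at 2.04-fold and 1.79-fold, and *AGAP1*, an Arf GTPase-activating protein, at 2.02-fold and 1.68-fold. *TRAF3IP1*, a component of intraflagellar transport, was at 1.87-fold and 2.05-fold, and *FARP2*, a guanine nucleotide exchange factor, at 1.91-fold and 2.47-fold. Among genes of cell division, dTTP supply and cell death, the CENP-A chaperone gene *HJURP* was at 1.48-fold and 2.31-fold, the thymidylate kinase gene *DTYMK* at 1.76-fold and 2.02-fold and the BCL2 family gene *BOK* at 1.62-fold and 1.66-fold.

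The remaining members encode metabolic enzymes and other proteins. *D2HGDH*, which oxidizes D-2-hydroxyglutarate and is the last member before the end of the chromosome, was at 11.9, 11.6 and 10.9 CPM in *WT* and 36.5, 37.7 and 38.7 CPM in *KO* cells with DMSO. With 5-FU, it was at 14 and 12.4 CPM versus 32.5, 35.0 and 29.5 CPM, and the ratios were 3.28-fold and 2.44-fold. *SCLY* (selenocysteine lyase) was at 1.87-fold and 1.99-fold, *ANKMY1* at 2.24-fold and 2.05-fold and *SNED1*, which encodes an extracellular matrix protein, at 1.78-fold and 2.01-fold. *EFHD1*, which encodes a calcium-binding mitochondrial protein, was the only member beyond *DIS3L2* that was lower in *KO* cells under a treatment. Its counts were 15, 7 and 19 in *WT* and 19, 19 and 17 in *KO* cells with DMSO (1.49-fold), and 37 and 16 versus 8, 12 and 6 with 5-FU (0.448-fold), so that depth limits its ratio. With a RUVg factor in the fit, the log2 ratio under DMSO was -1.30 for *EFHD1* and -0.60 for *SNED1*, whereas all other members beyond *DIS3L2* except *HES6* kept their direction under all alternatives. The sizes under DMSO moved more than 1.5 times with this factor for 8 members, which besides these 3 were *CAPN10* (1.27-fold), *GPR35* (1.39-fold), *RAMP1* (1.29-fold) and *ANKMY1* (1.33-fold), then below 1.5-fold, and *COPS8* (2.94-fold). *HDAC4*, *THAP4*, *BOK*, *MLPH* and *SNED1* were then also below 1.5-fold under DMSO, and *HJURP* and *PASK* above it. Under 5-FU, 0 members moved by that much, and *THAP4* (1.45-fold) and *RNPEPL1* (1.46-fold) went below 1.5-fold.

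**Figure D3:**
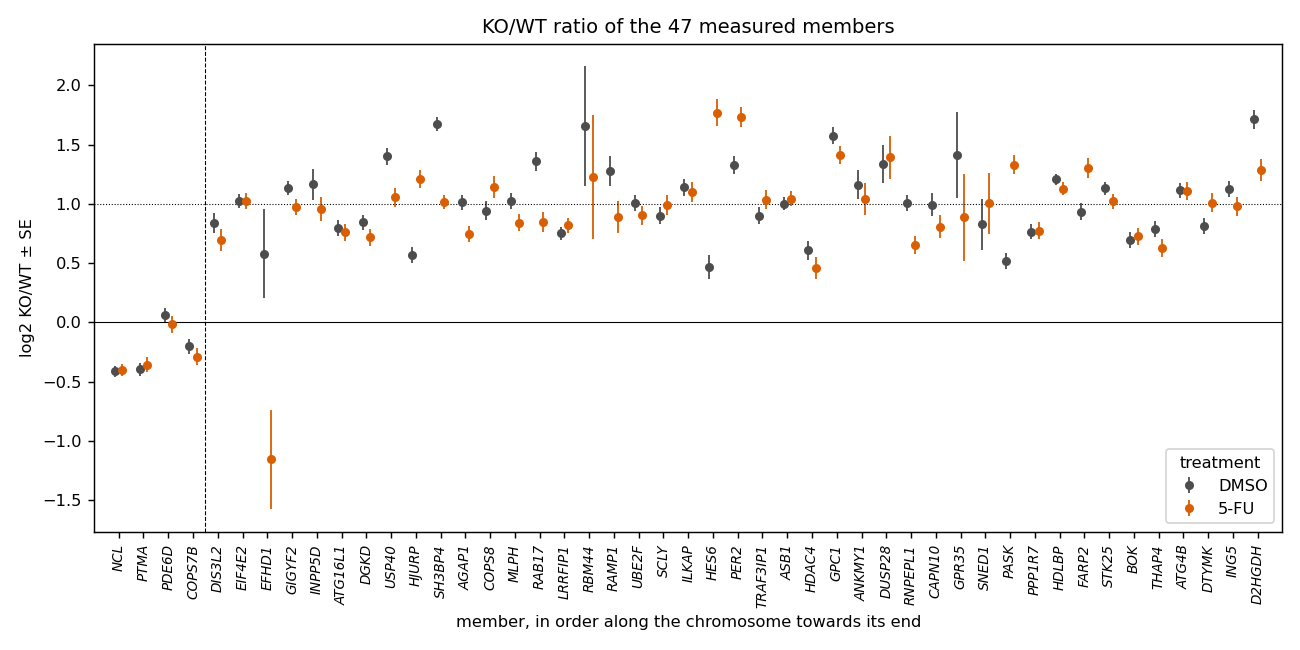
Log2 KO/WT ratio (vertical axis, points with SE of the fit) of the 47 measured members in their order along chromosome 2 (horizontal axis), under DMSO (gray) and 5-FU (orange). The dashed line stands before *DIS3L2*. The 4 members left of it are at or under 0.06, and the points right of it scatter around 1 with *EFHD1* under 5-FU at -1.16.

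Since 16 of the 47 members overlap another tested gene in the GENCODE annotation and the strand setting of the counting is not given in the sources used here, reads of such pairs may have been counted for either gene. The pairs are *PDE6D* and *COPS7B*, *LRRFIP1* and *RBM44*, *ANKMY1* with *DUSP28* and *RNPEPL1*, *CAPN10* and *GPR35*, *PASK* and *PPP1R7*, *FARP2* and *STK25*, and, with genes outside the list, *GIGYF2* and *SNORC*, *SNED1* and *MTERF4*, and *HDLBP* and *SEPTIN2*. The other members had no such neighbor. Of these, for example, *EIF4E2*, *USP40*, *COPS8* and *D2HGDH* were above 1.5-fold under both treatments. By contrast, *NCL* and *PTMA* were lower in *KO* cells, and *EFHD1*, *HES6*, *HJURP* and *HDAC4* were below 1.5-fold under at least 1 treatment. Whether overlap affected the ratios was not tested.

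To see whether the partners of the members in complexes and pathways differed in the same way, 112 genes in 10 lists were examined, of which 107 were tested. The genotype test of edgeR was used for these genes (FDR < 0.05 and absolute fold change > 1.5). The lists were, however, chosen with earlier results of these data known. Under DMSO, 5 partner genes were called higher and 2 lower in *KO* cells, compared to 9.10% and 4.97% of all genes. Under 5-FU, 8 were called higher and 1 lower, compared to 7.58% and 10.6%. The median log2 ratios of the partners were -0.0302 and 0.021. In the COP9 signalosome, the single called partner under either treatment was *COPS9* (log2 1.23 ± 0.119, SE, under DMSO and 0.74 ± 0.134 under 5-FU). This gene itself lies in the interval of the members, which were chosen by these ratios, so its values are given as a description. The medians of the 8 tested subunits were 0.0125 and 0.0116. No gene of neddylation (15 tested), CENP-A deposition (8), dTTP supply (8), or uridylation and exonuclease decay (7) was called under either treatment, and the medians of these lists under DMSO were -0.0858, -0.318, -0.302 and -0.104. DESeq2 likewise called 0 genes of these lists. At an unadjusted p below 0.05 by edgeR and without a fold limit, however, 7 of the 8 genes of CENP-A deposition were lower and 1 higher under DMSO, and 0 were lower and 4 higher under 5-FU. Of the 8 genes of dTTP supply, 6 were lower and 1 higher under DMSO, and 5 were lower and 1 higher under 5-FU. For neddylation, 3 were lower and 1 higher under DMSO and 4 lower and 2 higher under 5-FU, and for uridylation and exonuclease decay 2 were lower and 0 higher, and 1 lower and 1 higher.

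Over all genes, 3.61% were called higher and 3.33% lower under both treatments. Partners called under both treatments and located elsewhere were *NPAS2*, a transcription factor of the clock (log2 0.84 and 0.70), *HDAC9*, a class IIa deacetylase (1.47 and 0.80), and *MEF2C*, a transcription factor bound by these deacetylases, which was lower (-0.90 and -1.71). Among 14 tested clock genes, edgeR called 2 higher under DMSO and 3 under 5-FU, whereas DESeq2 called 1 and 3. Both called 0 lower. At an unadjusted p below 0.05 by edgeR, 7 clock genes were higher and 0 lower under DMSO, and 6 were higher and 2 lower under 5-FU. Of 15 genes of ATG12-ATG16L1 conjugation and LC3 processing, 1 was called higher and 1 lower under DMSO and 1 higher under 5-FU. The 4EHP-GIGYF2 list (11 tested) had 0 called genes under DMSO and 1 higher under 5-FU, and so had the ING5 acetyltransferase list (10 tested), whereas in the class II HDAC list (11 tested) 1 gene was called higher and 1 lower under each treatment. Under DMSO, DESeq2 also called 0 genes of the 4EHP-GIGYF2 and ING5 lists, whereas at an unadjusted p below 0.05 by edgeR 4 genes were higher and 4 lower in the first list and 3 higher and 2 lower in the other. Under 5-FU, DESeq2 called 1 gene higher in the 4EHP-GIGYF2 list and 2 in the ING5 list.

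Next, the response of the members to 5-FU was determined, which was not used to choose them. In *WT* cells, 6 of the 47 members were upregulated and 5 downregulated, compared to 18.5% and 9.38% of all genes tested. In *KO* cells, 4 were upregulated and 2 downregulated, compared to 13.3% and 12.0% of all genes. The median log2 change of the members was 0.0438 in *WT* and -0.0407 in *KO* cells, and that of all genes was 0.0339 and -0.0594. A total of 34 members were called neither in a genotype nor in the interaction. In *WT* cells, the log2 changes of the 36 members that were not called were between -0.463 and 0.826, and in *KO* cells those of the 41 not called were between -0.533 and 0.342. With a RUVg factor in the fit, whose variance lay to 98.2% between treatments, 0 members were called in either genotype by edgeR, and at an unadjusted p below 0.05 there were 2 higher and 10 lower in *WT* and 2 higher and 12 lower in *KO* cells. The directions of *MLPH* and *GPC1* in both genotypes, of *RAB17*, *RAMP1*, *PASK* and *HJURP* in *WT* and of *HES6* in *KO* cells were then the opposite of those given here.

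In both genotypes, 3 members were upregulated and 1 was downregulated. *INPP5D*, a phosphatase best known from blood cells, was induced most. It was at 2.38, 2.16 and 1.80 CPM in *WT* cells with DMSO and at 13.2 and 11.1 CPM with 5-FU (log2 2.54 ± 0.125, SE, FDR = 5.47e-11), and at 4.68, 4.85 and 4.57 CPM versus 24.9, 22.6 and 23.5 CPM in *KO* cells (log2 2.33 ± 0.102, FDR = 1.17e-11 by edgeR). Neither genotype showed an overlap between treatments. *MLPH* was at 32.5, 30.5 and 31.7 CPM with DMSO and 71.1 and 63.8 CPM with 5-FU in *WT* cells (log2 1.10 ± 0.0698, FDR = 1.25e-09), and at 60.0, 67.5 and 65.4 CPM versus 118, 129 and 116 CPM in *KO* cells (0.91 ± 0.0612, FDR = 2.25e-09 by edgeR). *GPC1*, with the values given above, rose by log2 1.07 ± 0.0748 (FDR = 4.05e-09) in *WT* and 0.91 ± 0.0658 (FDR = 5.77e-09 by edgeR) in *KO* cells. *PTMA* fell by 1.11 on the log2 scale in *WT* (SE 0.0623, FDR = 2.74e-10) and by 1.07 in *KO* cells (SE 0.0544, FDR = 7.36e-11 by edgeR). For these 4 genes, the responses of the genotypes differed by -0.21 to 0.04 on the log2 scale, and the interaction had an FDR of 0.384 for *INPP5D*, 0.159 for *MLPH*, 0.253 for *GPC1* and 0.746 for *PTMA* by edgeR.

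Further members were called in *WT* cells. *RAB17* was at 11.9, 10.3 and 11.8 CPM with DMSO and 21.1 and 19.7 CPM with 5-FU (log2 0.85 ± 0.0874, FDR = 4.19e-07 by edgeR), with 0.33 in *KO* cells. *RAMP1* was at 9.89, 11.4 and 12.9 CPM versus 21.3 and 16.6 CPM (0.73 ± 0.138, FDR = 0.000247 by edgeR), and the change was 0.53 and under the fold limit without *WT* 5-FU replicate 2. *FARP2* was at 21.0, 19.2 and 18.9 CPM versus 12.9 and 13.1 CPM (log2 -0.60 ± 0.084, FDR = 1.31e-05 by edgeR). It was at -0.55 and under the fold limit without *WT* DMSO replicate 1. *SNED1* was at 4.22, 2.96 and 3.30 CPM versus 2.95 and 1.37 CPM (-0.66 ± 0.263, FDR = 0.0404 by edgeR). Its treatments touched, and the call was lost without *WT* DMSO replicate 1 (-0.50) or 3 (-0.70) and without *WT* 5-FU replicate 3 (-0.24). The calls of *HJURP*, *PASK* and *SH3BP4* in *WT* cells and of *HES6* and *EFHD1* in *KO* cells are described with the interaction.

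**Figure D4:**
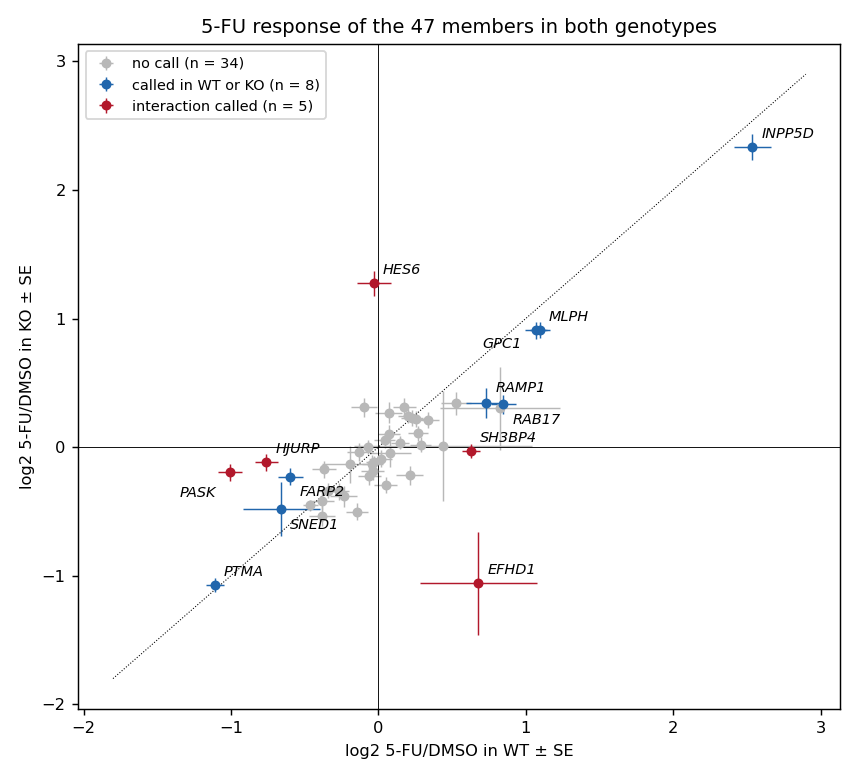
Log2 5-FU/DMSO in *WT* cells (horizontal axis) against *KO* cells (vertical axis), with SE of the fit, for the 47 members. Red points are the 5 members with a called interaction, blue points the 8 others called in a genotype and gray points the 34 without a call. *INPP5D* at 2.54 and 2.33 lies near the dotted line of equal response, *HES6* at -0.03 and 1.27 far above it.

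The response to 5-FU differed between the genotypes in 5 members. The interaction (log2 response in *KO* minus that in *WT* cells) was positive in 3 and negative in 2, compared to 3.42% and 6.66% of all genes tested. The interaction is also the difference of the KO/WT ratios under 5-FU and DMSO, both of which were known when the list was made. *HES6* was at 26.9, 27.2 and 27.7 CPM with DMSO and 30.9 and 22.2 CPM with 5-FU in *WT* cells, and at 32.5, 40.8 and 39.7 CPM versus 88.5, 95.3 and 89.5 CPM in *KO* cells. It thus rose in *KO* cells (log2 1.27 ± 0.0982, FDR = 1.25e-08) but was at -0.03 ± 0.114 in *WT* cells (FDR = 0.842), and the interaction was 1.30 ± 0.151 (FDR = 1.63e-05 by edgeR). The 2 *WT* libraries with 5-FU lay on both sides of those with DMSO.

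*PASK* and *HJURP* were downregulated in *WT* cells and called in *KO* cells in neither direction. *PASK* was at 22, 21.6 and 21.6 CPM with DMSO and 10.3 and 11.4 CPM with 5-FU in *WT* cells (log2 -1.01 ± 0.0811, FDR = 2.33e-08), and at 32.2, 31.3 and 30.1 CPM versus 26.8, 26.4 and 28.6 CPM in *KO* cells (-0.19 ± 0.0667). The interaction was 0.81 ± 0.105 (FDR = 4.26e-05 by edgeR). *HJURP* was at 39.7, 43.5 and 37.9 CPM versus 23.0 and 24.5 CPM in *WT* cells (log2 -0.76 ± 0.0775, FDR = 3.70e-07), and at 58.7, 63.7 and 56.6 CPM versus 54.4, 56.6 and 53.6 CPM in *KO* cells (-0.12 ± 0.0654). The interaction was 0.64 ± 0.101 (FDR = 0.000266 by edgeR). In *KO* cells, the treatments touched for *HJURP* at 56.6 CPM.

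*SH3BP4* was upregulated in *WT* cells, from 40.3, 35.2 and 37.7 CPM to 58.5 and 58.2 CPM (log2 0.63 ± 0.0621, FDR = 2.62e-07), and was at 121, 119 and 121 CPM versus 119, 112 and 123 CPM in *KO* cells (-0.03 ± 0.053). The interaction was -0.66 ± 0.0818 (FDR = 3.05e-05 by edgeR). Without *WT* DMSO replicate 2, the change in *WT* cells was 0.58 and under the fold limit. *EFHD1*, with 6 to 37 counts per library, was called lower in *KO* cells (log2 -1.06 ± 0.402, FDR = 0.0318) and had an interaction of -1.74 ± 0.565 (FDR = 0.0326 by edgeR). Both calls were lost without *KO* DMSO replicate 1 or 2, or without 5-FU replicate 1 or 3 of these cells, and that of the interaction also without *WT* DMSO replicate 2. Without *WT* 5-FU replicate 2, *EFHD1* did not reach 20 counts in any library and was not tested. DESeq2 called 0 members with a negative interaction, with *SH3BP4* at -0.58 just under the fold limit, and 6 members were lower at an unadjusted p below 0.05.

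**Figure D5:**
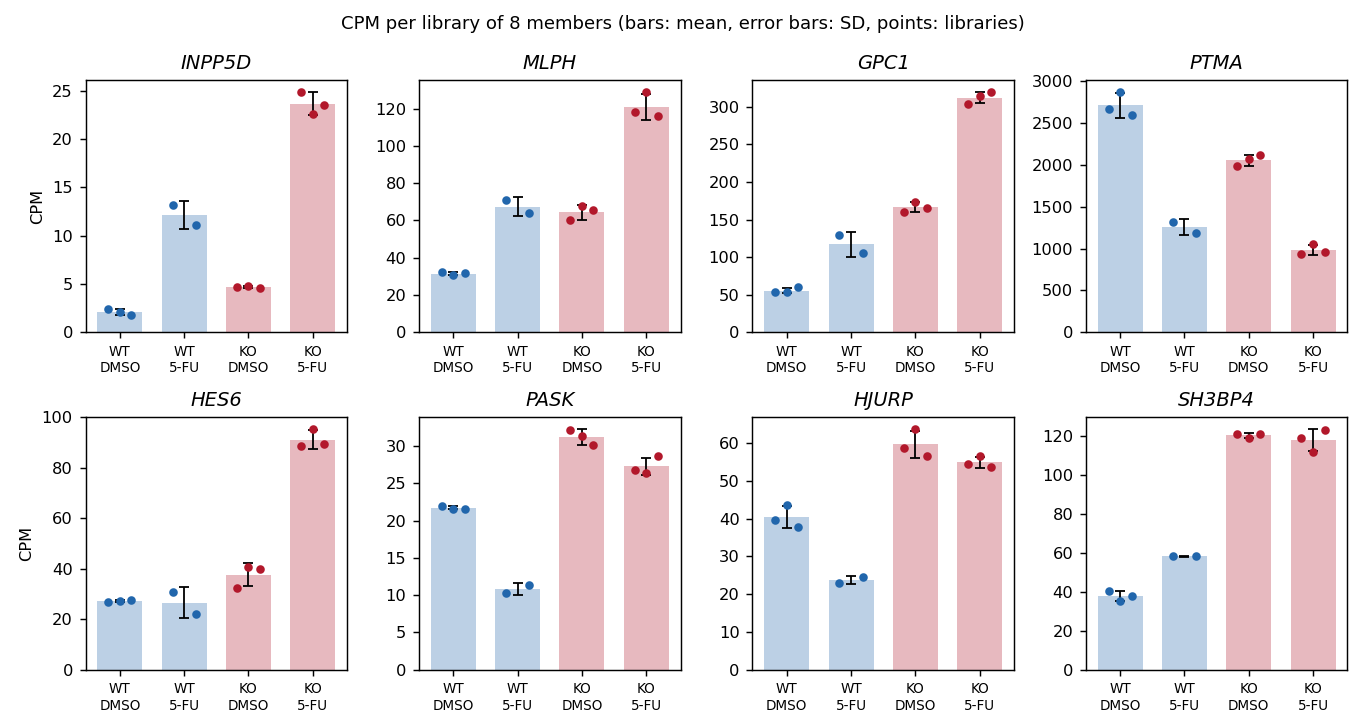
CPM (vertical axes, from 0) of 8 members in each library, with bars for the mean of a state and error bars for the SD (n = 3, and n = 2 for *WT* with 5-FU). The upper row shows the 4 members called in both genotypes and the lower row 4 members with a called interaction. *HES6* reaches 88.5 to 95.3 CPM in *KO* cells with 5-FU, and *PASK* falls to 10.3 and 11.4 CPM in *WT* cells with 5-FU.

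The promoters of the 3 members with the largest called decreases in *WT* cells are shown, as *PTMA*, *PASK* and *HJURP* differed in their response in *KO* cells. The sequences comprise 250 bases before to 50 bases after the start in RefSeq (GRCh38.p14), 5' to 3' on the strand of the gene, at chr2:231708275-231708574 (plus strand) for *PTMA*, chr2:241150173-241150472 (minus strand) for *PASK* and chr2:233854486-233854785 (minus strand) for *HJURP*. Capitals mark the CCAAT box (CCAAT, or ATTGG on the other strand) and the CHR element of cell cycle promoters (TTTGAA, or TTCAAA on the other strand).
PTMA: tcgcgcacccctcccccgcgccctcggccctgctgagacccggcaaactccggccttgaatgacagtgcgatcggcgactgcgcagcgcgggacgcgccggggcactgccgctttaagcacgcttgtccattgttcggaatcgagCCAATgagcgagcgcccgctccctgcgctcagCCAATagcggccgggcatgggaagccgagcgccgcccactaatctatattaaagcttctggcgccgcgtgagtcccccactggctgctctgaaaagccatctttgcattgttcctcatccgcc
PASK: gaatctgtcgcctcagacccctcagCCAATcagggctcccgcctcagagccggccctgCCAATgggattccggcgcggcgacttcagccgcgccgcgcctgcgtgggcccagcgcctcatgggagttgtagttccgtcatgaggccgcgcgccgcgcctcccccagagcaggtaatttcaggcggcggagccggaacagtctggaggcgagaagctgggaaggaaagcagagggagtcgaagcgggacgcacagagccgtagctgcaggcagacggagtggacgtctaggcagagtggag
HJURP: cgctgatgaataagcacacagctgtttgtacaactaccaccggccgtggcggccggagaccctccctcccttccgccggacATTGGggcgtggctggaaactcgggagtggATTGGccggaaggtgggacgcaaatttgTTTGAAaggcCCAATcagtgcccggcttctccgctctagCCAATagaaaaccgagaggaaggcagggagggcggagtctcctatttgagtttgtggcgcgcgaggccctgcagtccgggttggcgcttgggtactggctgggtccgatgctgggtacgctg
These windows hold 2 CCAAT boxes in *PTMA*, 2 in *PASK* and 4 in *HJURP*, and 1 CHR in *HJURP* only. Of 45 members with a promoter in the table, 21 held a CCAAT box (46.7%, compared to 34.6% of all 35116 promoters of this length) and 3 a CHR (6.67%, compared to 15.2%). The E-box CACGTG, bound by clock transcription factors, was found in 4 members (8.89%, compared to 7.26%), namely *ANKMY1*, *CAPN10*, *GIGYF2* and *HDAC4*, and not in *PER2*. A match describes these letters only. Several members share a start region with a neighbor on the other strand. *DTYMK* and *ING5* start 141 bases apart, and *THAP4* and *ATG4B* 55 bases apart. The annotated starts of *PASK* and *PPP1R7* overlap by 688 bases, and in *WT* cells with 5-FU *PASK* fell as given above whereas *PPP1R7* was at log2 0.04 ± 0.0705 (FDR = 0.613 by edgeR).

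Finally, sites for miR-34 were counted, since the microRNAs were deleted in *KO* cells. The mature microRNAs are given from RefSeq with the seed (bases 2 to 8) in capitals. They are encoded at chr1:9151735-9151756 (minus strand) and chr11:111512950-111512972 (plus strand) of GRCh38.p14. Below them are sites for the seed of *miR-34a* (CACTGCC, in capitals) with 10 bases on both sides from the 3' UTRs of 3 members with different roles, *ATG4B* (chr2:241672520-241672546, plus strand), *PER2* (chr2:238245417-238245443, minus strand) and *HDLBP* (chr2:241228928-241228954, minus strand), in GENCODE 44 on GRCh38.
hsa-miR-34a-5p: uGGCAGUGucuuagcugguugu
hsa-miR-34b-5p: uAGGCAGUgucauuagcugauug
ATG4B: gttctctcgaCACTGCCagccccgtgt
PER2: cgagagcagcCACTGCCactcagtctg
HDLBP: cccctacctcCACTGCCagaccctcag
A site was found in 16 of the 47 members (34%) and in 2303 of 13123 tested genes with a 3' UTR (17.5%), with a median 3' UTR of 1596 and 1282 bases, respectively. The median log2 KO/WT ratio was 1.02 under DMSO and 1.01 under 5-FU in the 16 members with a site, and 0.944 and 0.902 in the 31 members without one. Of the 4 members before *DIS3L2*, *COPS7B* held a site, at 0.87-fold and 0.818-fold. *ASB1* held 3 sites and *SNED1* 2. Only the site CACTGCC was searched. Sites for the seed of *miR-34b* were not searched, so members without CACTGCC may hold such sites. No sequence of *miR-34c* was available, so its seed was not compared with CACTGCC. No test was made, as the ratios chose the list, and nothing is read from these medians about the part of miR-34.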

How the data were processed

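RNA of HCT116 cells, *WT* or *miR-34a/b/c-KO* (*KO*), was sequenced by the authors 48 h after addition of DMSO or 5-FU. They aligned paired-end reads to GRCh38 with CLC Genomics Workbench. The authors deposited raw counts per gene symbol for 12 libraries. Samples were grouped by their titles, and 1 library identical to another was left out. Column headers of the remaining *WT* 5-FU files number them differently from the titles.

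Genes that reached 20 counts in any library were kept, scaled with upper-quartile factors and fitted with edgeR 4.0.16 (glmQLFit, glmQLFTest, two-sided) in 1 model over 11 libraries, with Benjamini-Hochberg adjustment over all 16123 genes. A gene was called at FDR < 0.05 and a fold change above 1.5 in either direction. DESeq2 1.42.0, TMM factors, other filters, a replicate block, RUVg and leaving out libraries were alternatives. On simulated counts (16123 genes), 94% of 100 genes changed by log2 1 were recovered for 5-FU in *WT*, and 90% for the interaction. Replicate numbers did not pair the samples (1 of 15 same-number pairs had a correlation over 0.1).

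The members and the partner lists were chosen with earlier results of these data known. Positions came from GENCODE 44, to which 37126 symbols were matched directly and 496 through RefSeq synonyms. All members are named. Values per library are given for the 5 members with the highest CPM, those with the 3 highest and 3 lowest mean genotype ratios, members called after 5-FU (at most 8 per comparison), and, outside this rule, for both autophagy genes. Other genes are named as examples if they lie in or next to the interval, or if they are partners called under both treatments.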

Additional observations from a re-analysis of the deposited data

Results flagged for a closer look

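In 5 members, the response to 5-FU differed between *KO* and *WT* cells by the interaction test of edgeR (log2 response in *KO* minus that in *WT* cells). The difference was 1.303 for *HES6*, 0.8116 for *PASK*, 0.6423 for *HJURP*, -0.6572 for *SH3BP4* and -1.738 for *EFHD1*. *HES6* rose in *KO* cells and was not called in *WT* cells, *PASK* and *HJURP* fell in *WT* cells and were not called in *KO* cells, and *SH3BP4* rose in *WT* cells and was not called in *KO* cells. *EFHD1* rests on at most 37 counts per library. Single libraries that stand apart within a state could not be examined by a rule, as each state held 2 or 3 libraries.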

How the results depend on the processing

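The median log2 KO/WT ratio of the members under DMSO was 0.973 to 1.01 and the number above 1.5-fold 37 to 41 over all alternatives but RUVg. Under 5-FU, this number was 39 to 42, and the median of 0.978 moved to 1.02 with TMM factors, to 1.03 with DESeq2 and to 0.907 to 1.04 when single libraries were left out. DESeq2 called 1 member lower in *KO* cells and 0 with a negative interaction (*SH3BP4* at -0.578 and *EFHD1* at -1.68). With no filter or with 20 counts required in every library, 1 member was called lower in *KO* cells, and with the latter 1 had a negative interaction. Leaving out single libraries gave 3 to 5 members called lower in *WT*, 1 to 3 lower in *KO* cells, 1 to 2 with a negative interaction and 1 to 3 partners lower under 5-FU. *WT* 5-FU rests on 2 libraries, and without 1 of them the other is assumed to vary like the other states.

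With the replicate number as a block, 4 members were called lower in *WT* cells, with *FARP2* at -0.563 under the fold limit, and no other named call changed. With *WT* 5-FU numbered as in the column headers, an alternative chosen after seeing the data, the block left 1 negative interaction and 4 members lower in *WT* cells (*SNED1* FDR = 0.0584 by edgeR). The numbers do not pair the samples, as correlations of same-number libraries were -0.184 to 0.149.

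With 1 RUVg factor, the members' median log2 KO/WT ratio moved to 0.869 under DMSO (32 above 1.5-fold) and 0.916 under 5-FU (39 above), an alternative added for these ratios after seeing the data. With this factor, whose variance lay to 98.2% between treatments, 0 members were called higher or lower in *WT* cells and 0 higher or lower in *KO* cells, 1 had a negative interaction, and 4 partners were lower under DMSO and 3 under 5-FU. The log2 changes then reversed for *HJURP* (0.101), *PASK* (0.81), *MLPH* (-1.66), *RAB17* (-1.05), *RAMP1* (-4.96) and *GPC1* (-2.14) in *WT* cells and for *HES6* (-3.33), *MLPH* (-1.53) and *GPC1* (-1.92) in *KO* cells. As the factor nearly coincides with the treatment, the 5-FU response could hardly be estimated beside it.

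Without a minimum fold change, 14 members were called higher and 12 lower in *WT* cells, 14 and 17 in *KO* cells, 5 had a positive and 7 a negative interaction, and 27 partners were higher and 27 lower under DMSO, 28 and 20 under 5-FU.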
